A study of Mus musculus with 2 samples.

Results

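Bipolar cell genes were compared between the retina of 1 Sox11 knockout mouse embryo and that of 1 wild-type littermate. The genes were 10 named members, 6 transcription factors (Vsx1, Irx5, Irx6, Lhx4, Bhlhe22 and Bhlhe23) and 4 genes of late function (Car8, Pcp2, Cabp5 and Trpm1). They were chosen by name, with earlier results of these data known. Every probe set counted whose platform annotation gave exactly 1 gene symbol and that symbol was a member. This gave 19 of the 45037 probe sets of the array and 9 of its 18193 named genes; the tenth member, Bhlhe22, had no such probe set and is not analysed here. The knockout embryo was Sox11-/-, both embryos were of C57BL/6 background at embryonic day 18, and neither received a treatment. For each genotype, RNA from 1 retina was amplified from its poly(A) end and read on an Affymetrix mouse array with a biotin label. The labels do not say which stretch of Sox11 was removed. With 1 array per genotype there was no replicate and no test, and the differences below are those of 1 array from the other; the number of arrays limits the precision.

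Bipolar cells carry the signal of rod and cone photoreceptors to amacrine and ganglion cells. ON types sense glutamate through a metabotropic receptor whose cascade closes the cation channel TRPM1, and OFF types through ionotropic receptors. In the mouse they are among the last retinal neurons to be born, mostly after birth, and their subtypes are set by homeobox and basic helix-loop-helix factors before the proteins of synaptic signalling accumulate. The embryonic retina measured here thus comes before most bipolar cells exist, and several members are also used by other cells: Lhx4 by cone precursors, Irx5 and Irx6 by ganglion cells, and Trpm1 by pigment cells.

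The members did not share a direction. The 3 transcription factors above the low-value filter, Irx5, Irx6 and Lhx4, had lower intensities on the knockout array, Irx5 by 1.81-fold. Among late function genes, Car8 was lower by 2.16-fold at its brightest probe set and Pcp2 higher by 1.91-fold, Cabp5 was close to level, and the 4 probe sets of Trpm1 split evenly in sign. The filter kept a probe set whose brighter array reached 18.6, the median of all intensities of both arrays; 11 of the 19 member probe sets did, for 7 genes. Ratios are knockout minus wild type of log2(intensity + 5), which understates the change of dim probe sets.

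**Figure D1:**
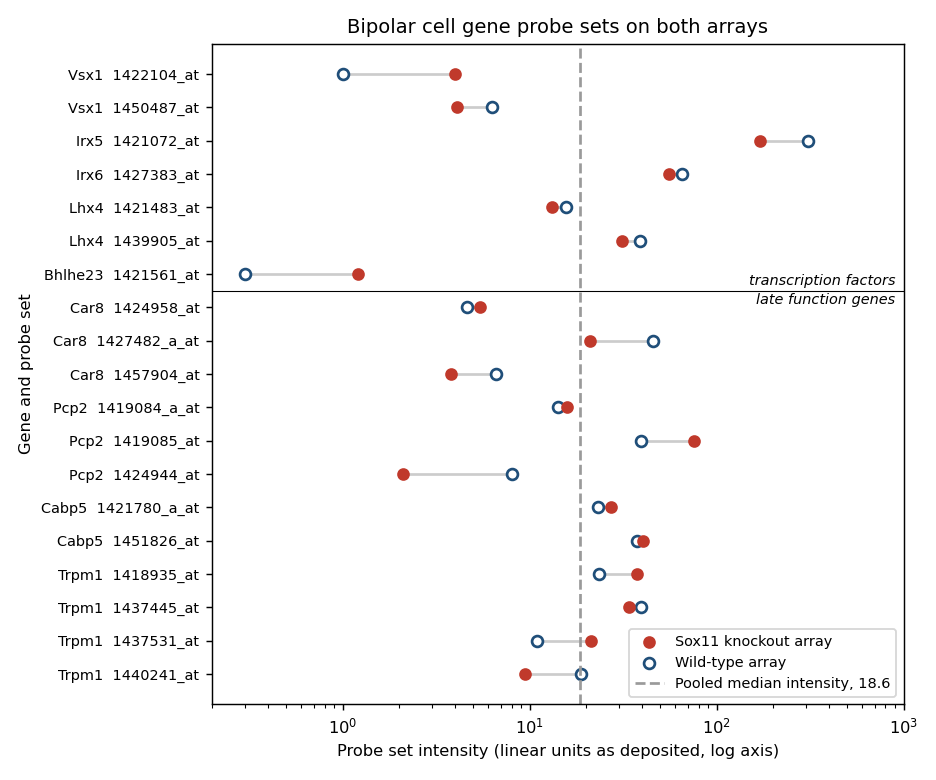
Intensity of each of the 19 probe sets (rows, named by gene) on the Sox11 knockout array (filled red) and the wild-type array (open blue), on a log axis; the dashed line is the pooled median intensity of 18.6. Only Irx5 exceeds 100 on both arrays, and most probe sets lie close to the dashed line or left of it.

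The series as a whole bears on how these values are read. Intensities of both arrays had been scaled alike, with median values of 19.7 in the knockout and 17.6 in the wild type. Of the 6 Sox11 probe sets, 5 were lower in the knockout, the brightest at 252.4 against 3205.7 in the wild type, and 1 was higher, at 701.7 against 328.8. The embryos also differed in sex-linked RNA: Xist reached 922.7 in the knockout, against 12.3 in the wild type, while Eif2s3y, on the Y chromosome, read 4.7 in the knockout and 214.0 in the wild type. Genotype and sex therefore cannot be told apart here, and in tissue RNA fewer cells of a type and less RNA per cell cannot be told apart either.

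Among the transcription factors, Irx5 stood out. Irx5 encodes an Iroquois homeodomain factor that some OFF cone bipolar cells need for their maturation. Its only probe set, 1421072_at, read 170.1 in the knockout and 307.3 in the wild type, a log2 ratio of -0.83, so the knockout array had 55.4% of the wild-type intensity. Both values were far above the filter. Among probe sets of like level (the array was divided by level into 4 equal bands), 95% had ratios between -0.44 and 0.57, and Irx5 lay below that range. The ratio moved little with processing, between -0.86 and -0.79 over all settings run.

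The other Iroquois and LIM factors were lower by less. Irx6, a neighbour of Irx5 on chromosome 8 with a role in the same group of OFF types, read 55.6 in the knockout and 65.3 in the wild type, a log2 ratio of -0.21. Lhx4, a LIM-homeodomain factor of cone bipolar cells that is also expressed in developing cones, gave 31.1 in the knockout and 38.9 in the wild type at 1439905_at, a log2 ratio of -0.28. Its dimmer probe set 1421483_at was below the filter on both arrays, at 13.2 in the knockout and 15.6 in the wild type. All these probe sets had the lower value in the knockout, but the ratios of Irx6 and Lhx4 lay inside the central 95% at their levels, -0.53 to 0.77 and -0.76 to 1.18. Of all probe sets past the filter, 44.9% had a negative ratio, so a negative sign alone is common.

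The remaining transcription factors gave no usable signal. Vsx1, a paired-type homeodomain factor of cone bipolar cells, read 4.0 in the knockout and 1.0 in the wild type at 1422104_at. At 1450487_at it read 4.1 in the knockout and 6.3 in the wild type, so its probe sets differed in sign. Bhlhe23, a basic helix-loop-helix factor that rod bipolar cells need to mature, read 1.2 in the knockout and 0.3 in the wild type. All 6 of these intensities were well under 18.6, so the values carry no direction and no fold is given.

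Of the late function genes, Car8 was lower in the knockout. Car8 encodes a carbonic anhydrase-related protein without enzyme activity that binds the inositol trisphosphate receptor. At 1427482_a_at it read 21.1 in the knockout and 45.5 in the wild type, a log2 ratio of -0.95, which lay below the central 95% at its level (-0.76 to 1.18). The knockout value was close to the filter. The other Car8 probe sets were below the filter on both arrays and had opposite signs: 1457904_at read 3.8 in the knockout and 6.6 in the wild type, and 1424958_at read 5.4 in the knockout and 4.6 in the wild type. The difference in Car8 thus rests on 1 probe set, whose suffix says that it matches several transcripts of the gene.

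Pcp2 went the other way. Pcp2 (L7) encodes a GoLoco-domain protein of rod and ON bipolar cells and of cerebellar Purkinje cells that binds G-protein alpha subunits. Its brightest probe set, 1419085_at, read 75.4 in the knockout and 39.4 in the wild type, a log2 ratio of 0.86, above the central 95% at its level (-0.53 to 0.77). The probe set 1419084_a_at, below the filter, read 15.9 in the knockout and 14.2 in the wild type. The dimmest, 1424944_at, read 2.1 in the knockout and 8.0 in the wild type. Again 1 probe set carried the difference.

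Cabp5 was close to level. It encodes a calmodulin-like calcium-binding protein of rod bipolar and some cone bipolar cells. Both of its probe sets were above the filter on both arrays: 1451826_at read 40.2 in the knockout and 37.5 in the wild type, and 1421780_a_at read 27.3 in the knockout and 23.2 in the wild type. Their log2 ratios were 0.09 and 0.20. The first became slightly negative after quantile normalization, at -0.038, and after loess, at -0.013.

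Trpm1, the channel gated by the ON bipolar cascade, gave no single direction. The probe set 1418935_at read 37.7 in the knockout and 23.5 in the wild type, a log2 ratio of 0.58. The brightest, 1437445_at, went the other way, at 33.9 in the knockout and 39.5 in the wild type, a log2 ratio of -0.19. Of the dimmer probe sets, 1437531_at read 21.4 in the knockout and 11.0 in the wild type, and 1440241_at read 9.4 in the knockout and 18.8 in the wild type. Each of these passed the filter only through its brighter array. Taken against the filter value the first was higher in the knockout by at least 1.15-fold, and the second lower by at least 1.01-fold. Without the positions of the probe sets along the gene, a difference between Trpm1 transcripts was not tested.

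Genes of pigment cells, which also express Trpm1, gave mostly higher values on the knockout array. Of 9 pigment cell markers, 7 passed the filter. Tyr and Mlana passed it through the knockout array only, so their place among the higher markers is partly set by the filter. Of the 7, 6 were higher on the knockout array, with a median log2 ratio of 0.60, or 0.40 with values below the filter set to 18.6. Of all 11557 genes past the filter, 5511 were higher in the knockout. The summed intensity of the 7 was 445.6 in the knockout and 293.1 in the wild type; Slc45a2 and Rpe65 were below the filter. Dct, an enzyme of melanin synthesis, read 122.9 in the knockout and 63.0 in the wild type, and Pmel, of the melanosome matrix, 131.8 in the knockout and 85.2 in the wild type. Tyr, the first enzyme of that pathway, was at least 1.41-fold higher in the knockout, and Mlana, a melanosomal protein, at least 1.12-fold. The part of pigment cells in the Trpm1 values was not tested.

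Trpm1 has more than 1 annotated start, and the sequence before each is shown. Whether the starts bear on its disagreeing probe sets was not tested. Cabp5 and Pcp2 are shown as the level and the higher gene. The 250 bases before the start are from RefSeq, build GRCm38.p6, 5′ to 3′ on the gene's strand. Of the 7 genes past the filter, 4 had entries: Cabp5, Lhx4, Pcp2 and Trpm1. Irx5, Irx6 and Car8 had none. Capitals mark matches, on either strand, to TAATCC, a core bound by the OTX and CRX homeodomain factors of photoreceptors and bipolar cells, or to ACAAAG or ACAATG, cores bound by SOX factors. For Pcp2, the most upstream of 4 annotated starts is shown.
Trpm1 upstream start, chr7:64153585-64153834, plus strand: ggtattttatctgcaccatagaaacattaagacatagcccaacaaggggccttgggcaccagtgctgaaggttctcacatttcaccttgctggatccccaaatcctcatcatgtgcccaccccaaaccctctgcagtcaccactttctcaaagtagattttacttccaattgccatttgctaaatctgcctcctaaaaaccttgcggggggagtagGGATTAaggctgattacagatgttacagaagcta
Trpm1 downstream start, chr7:64185209-64185458, plus strand: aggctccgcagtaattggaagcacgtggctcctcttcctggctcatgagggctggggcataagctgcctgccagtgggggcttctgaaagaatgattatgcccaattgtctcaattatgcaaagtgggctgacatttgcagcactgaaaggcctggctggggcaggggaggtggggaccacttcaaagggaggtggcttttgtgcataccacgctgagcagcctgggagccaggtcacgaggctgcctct
Cabp5, chr7:13397905-13398154, plus strand: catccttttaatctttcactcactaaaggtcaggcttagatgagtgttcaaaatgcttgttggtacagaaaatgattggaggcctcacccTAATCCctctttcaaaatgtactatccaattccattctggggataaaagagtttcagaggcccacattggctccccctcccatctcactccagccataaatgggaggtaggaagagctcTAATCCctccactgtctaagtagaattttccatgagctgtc
Pcp2, chr8:3625548-3625797, minus strand: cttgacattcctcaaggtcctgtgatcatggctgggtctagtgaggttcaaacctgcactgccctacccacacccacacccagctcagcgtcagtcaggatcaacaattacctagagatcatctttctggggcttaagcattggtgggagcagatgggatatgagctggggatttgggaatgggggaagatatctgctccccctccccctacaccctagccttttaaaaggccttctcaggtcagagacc

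The window before Cabp5 holds TAATCC at 2 places, 160 and 41 bases before the start. The window before the upstream Trpm1 start holds it once, on the opposite strand, 34 bases before the start. Of 32851 promoters of the same length, 6.25% hold TAATCC on either strand. No SOX core lies in the windows shown or in that of Lhx4, while 16.5% of all promoters hold ACAAAG and 10.7% hold ACAATG. Before a more downstream Pcp2 start, ACAATG occurs 51 bases upstream. The same site lies 241 bases before the next annotated start. It is downstream of the Pcp2 start shown, so the window shown does not hold it. The motifs do not overlap each other, and these matches describe letters only.

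Set against each other, the classes differed in their medians by less than they varied within. The 3 transcription factor probe sets past the filter had a median log2 ratio of -0.28, from -0.83 to -0.21, and the 8 late function probe sets a median of 0.14, from -0.95 to 0.86. The medians differed by -0.42, transcription factors minus late function genes, but by -0.23 with 1 value per gene. Without probe sets that may match several transcripts, the late function median was 0.34 and the difference -0.62. The late function median was 0.013 after quantile normalization and 0.038 after loess, with differences of -0.43 and -0.42. With no filter, the medians were -0.21 over 7 transcription factor probe sets and 0.10 over 12 late function probe sets. Over all 23581 probe sets past the filter the median was 0.030. With 1 value per gene, from the brightest probe set, the median of the 4 late function genes was -0.053, since Trpm1 then counted once and with a negative ratio.

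No member was 2-fold apart on the log2(intensity + 5) scale. Past the filter, 1.87% of all probe sets were. At 1.5-fold, a threshold added after the data were seen, 3 of the 11 member probe sets past the filter were lower in the knockout (Irx5, Car8 and the Trpm1 probe set 1440241_at) and 2 higher (Pcp2 and the Trpm1 probe set 1437531_at). The Trpm1 probe sets among these passed the filter through 1 array only, and their bounds of 1.01-fold and 1.15-fold do not reach 1.5-fold. That leaves Irx5, Car8 and Pcp2 as the counted members with both arrays above the filter. A further Trpm1 probe set, 1418935_at, was also above the filter on both arrays. Its plain intensities were 1.60-fold apart, higher in the knockout. Its log2 ratio, taken after adding 5, was 0.58 and fell just short of the 1.5-fold threshold. Over all probe sets past the filter, 2.15% were lower and 6.29% higher at that threshold. The 3 members outside the central 95% at their level, Irx5, Car8 and Pcp2, compare with 5.02% of all probe sets past the filter, a share that the choice of a central 95% sets. Near the filter, the members just inside were the Trpm1 probe sets 1440241_at and 1437531_at, with brighter values of 18.8 and 21.4, and those just outside were 1419084_a_at of Pcp2 and 1421483_at of Lhx4, with brighter values of 15.9 and 15.6.

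**Figure D2:**
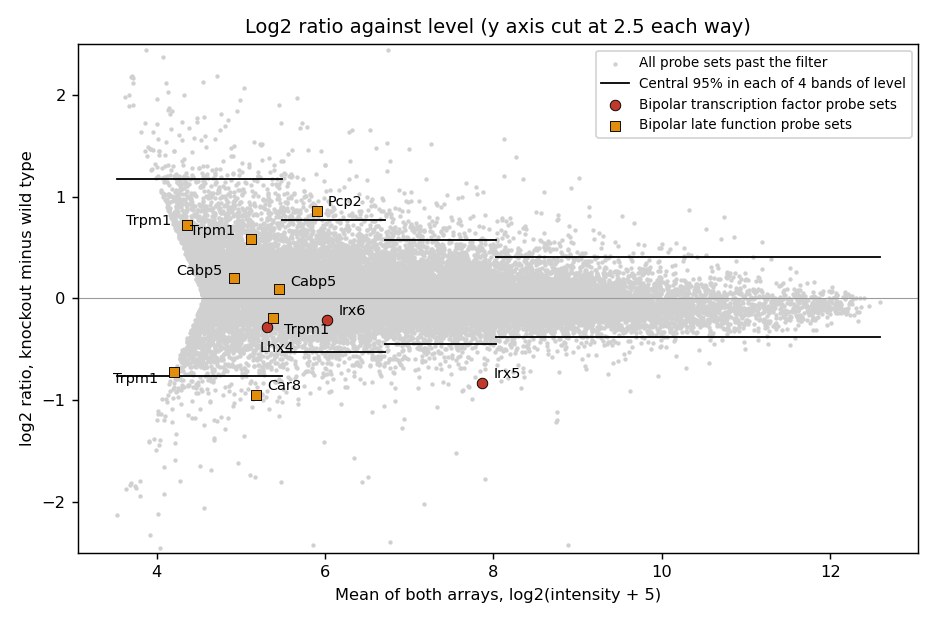
Log2 ratio, knockout minus wild type (y axis), against the mean log2(intensity + 5) of both arrays (x axis) for all 23581 probe sets past the filter (grey), with the 3 transcription factor (red circles) and 8 late function (orange squares) probe sets of bipolar cells; black lines bound the central 95% of ratios in each of 4 bands of level. Irx5 at -0.83 and Car8 at -0.95 lie below the lines and Pcp2 at 0.86 above, while the other member probe sets lie between them.

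Other genes listed for bipolar cells were about level as a group, and which cells gave their signal at embryonic day 18 was not tested. The 10 further regulators of bipolar fate or subtype that were measured all passed the filter, 6 with lower and 4 with higher values in the knockout, with a median log2 ratio of -0.05. Fezf2, a zinc finger factor of an OFF subtype, read 314.9 in the knockout and 152.1 in the wild type, a log2 ratio of 1.03 and the only one of the 10 at 2-fold or more. Prdm8, a factor that rod bipolar cells need to form, went the other way, with 96.0 in the knockout and 181.0 in the wild type, a log2 ratio of -0.88. The proneural factor Neurod4 had -0.29 and the homeobox gene Sebox -0.28. Fezf2 and Prdm8 thus differed in sign, as Pcp2 and Car8 did among the members.

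Other genes of bipolar function were mostly dim. Of 16 listed, 14 had a probe set and 7 of these passed the filter, 3 lower and 4 higher in the knockout, with a median log2 ratio of 0.03; Nyx, Gpr179, Gng13, Grik1, Scgn, Cabp2 and Syt2 were below it. Grm6, the receptor of the ON cascade, and Lrit3 matched no probe set. Gnb3, a G-protein beta subunit of ON bipolar cells and cones, read 357.5 in the knockout and 319.5 in the wild type. Prkca, the kinase that marks rod bipolar cells, gave 74.1 in the knockout and 88.7 in the wild type. Tacr3, a tachykinin receptor of OFF bipolar cells, had a log2 ratio of 0.27, and Neto1, an auxiliary subunit of glutamate receptors, was at least 1.04-fold higher in the knockout. Neto1 passed the filter through the knockout array only, and on the log2(intensity + 5) scale none of the 7 was 2-fold apart.

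Rod markers had a larger median difference between the arrays than the bipolar lists. The medians of cone and ganglion cell markers were closer to level than that of the bipolar transcription factors. All 7 rod markers past the filter had lower values in the knockout, with a median log2 ratio of -0.86, or -0.81 with values below the filter set to 18.6. Sag, the rod arrestin, read 42.8 in the knockout and 246.7 in the wild type, and Nrl, which sets rod fate, 289.0 in the knockout and 632.8 in the wild type. Pde6b and Cngb1 passed the filter through the wild-type array only and were lower in the knockout by at least 1.96-fold and 1.23-fold. The summed rod intensity was 568.3 in the knockout and 1307.0 in the wild type; Gnat1, Pde6a and Cnga1 were below the filter. Cone markers, which matter for Lhx4, had 3 lower and 5 higher of 8, with a median of 0.17, from -0.32 for Pde6h to 0.76 for Pde6c, and Thrb and Gngt2 at 0.64 and 0.35. These are ratios of the brightest probe set per gene. Another probe set past the filter gave -0.80 for Opn1sw and 0.08 for Pde6h. Their summed intensity was 1393.9 in the knockout and 1334.4 in the wild type. Ganglion cell markers, which matter for Irx5 and Irx6, had higher values in 8 of 9 cases, with a median of 0.21 and a summed intensity of 5315.0 in the knockout and 4642.4 in the wild type. Ebf3, Isl2, Nefm and Sncg led them, at 0.65, 0.61, 0.37 and 0.26. The smallest ratios among the 8 were almost level, at 0.008 and 0.003. The lower Irx5 value thus stood beside ganglion cell markers that were mostly higher, some of them almost level. The part of these cells in the member values was not tested.

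Amacrine and macrophage markers were measured as further cells of the sample. For all lists, the background is that of 11557 genes past the filter, taken at 1 value per gene. Of these, 6026 were lower and 5511 higher in the knockout, with a median log2 ratio of -0.012. Of 9 amacrine markers past the filter, 7 were lower in the knockout, with a median of -0.15 and the largest ratio, -0.65, for Gad1, which makes GABA, before Slc32a1, Tfap2a and Tfap2c. Their summed intensity was 2489.2 in the knockout and 2720.6 in the wild type. All 7 macrophage markers past the filter were higher in the knockout, with a median of 1.20 and a summed intensity of 641.5 in the knockout and 301.8 in the wild type. Log2 ratios were 1.31 for C1qb, 1.22 for C1qa and 1.20 for C1qc, which encode a complement component, and Mpeg1, which passed the filter through the knockout array only, was higher by at least 2.75-fold. Retinal markers were present on both arrays, with the photoreceptor and bipolar factor Otx2 at 1751.3 in the knockout and 1841.2 in the wild type; it was picked as a tissue check after its values were seen.

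**Figure D3:**
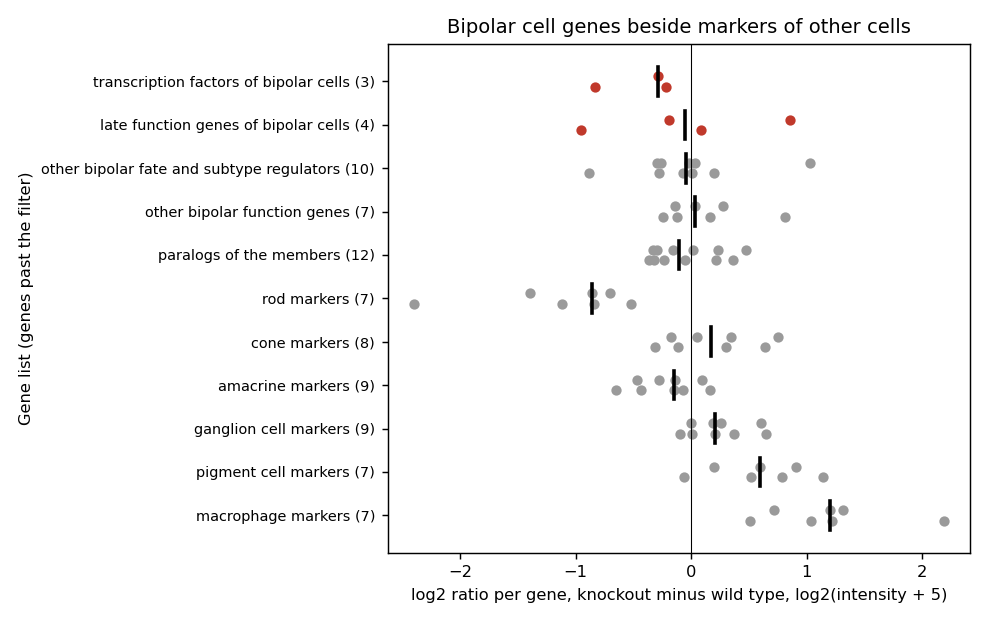
Log2 ratio per gene, knockout minus wild type (x axis), for the bipolar cell members (red) and other gene lists (grey), with the number of genes past the filter in parentheses; each point is 1 gene at its brightest probe set and each black bar the median. Late function members spread from -0.95 to 0.86 around a median of -0.05, while all rod markers lie below 0 and all macrophage markers above it.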

How the data were processed

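Both arrays were 1-colour Affymetrix mouse arrays, with RNA of 1 retina each per the labels' protocols. The authors deposited linear intensities, 1 per probe set and array; how they were computed is not given in the sources used here. From the values, the mean after leaving out 2% of probe sets at each end was 100 on both arrays. From the 45101 probe sets, 64 controls were left out. Intensities were turned to log2(intensity + 5), 5 being the pooled 25th percentile, without further normalization; the low-value filter was 18.6, the pooled median. In the lists, a gene is represented by the probe set past the filter that is brightest on average, and where the dimmer array was below 18.6 the fold is a lower bound against 18.6. The platform annotation named 34945 probe sets by 1 symbol and 932 by several, with no member among these, and left 9160 unnamed. The 4 bands of level were set over the probe sets past the filter. Every member is named; from each of 9 comparison lists, up to 4 genes with the largest ratios are named, plus Sox11 and sex-linked genes as checks. The members and lists were chosen with earlier results of these data known. Python 3.11.15, pandas 2.3.3 and statsmodels 0.14.6 were used, and the calculations were tested on simulated data.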

Additional observations from a re-analysis of the deposited data

How the results depend on the processing

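The ratios of Irx5, Irx6, Lhx4 (1439905_at), Car8 (1427482_a_at) and Pcp2 (1419085_at) kept their sign under every pseudocount and normalization tried; Cabp5 1451826_at turned to -0.038 (quantile) and -0.013 (loess). Without a pseudocount 2 member probe sets were at least 2-fold apart, Car8 and Trpm1 1440241_at, and after quantile normalization or loess 1, Car8. The late function median turned to -0.053 with 1 value per gene. With the filter at the pooled 75th percentile, 109.4, no late function probe set was left and the transcription factor median was that of Irx5, -0.83. Over the whole array, 347 probe sets were higher and 94 lower in the knockout by 2-fold or more; the counts were 608 and 166 without a pseudocount, 84 and 37 with a pseudocount of 18.6, 912 and 617 with no filter, 35 and 24 with the stricter filter, and 109 and 47 with 1 value per gene. The share of higher ones was 78.7%, but 64.6% after quantile normalization and 67.5% after loess (243 and 133, 258 and 124). No paired analysis was possible because each genotype has 1 array. Dim signal limits Vsx1, Bhlhe23, Lhx4, Cabp5 and most Car8, Pcp2 and Trpm1 probe sets.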

Other observations

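Related genes of the members, listed by family, were measured as well. In the Iroquois family, Irx3, which lies with Irx5 and Irx6 on chromosome 8, read 87.6 in the knockout and 111.1 in the wild type, a log2 ratio of -0.33. On chromosome 13, Irx2 had -0.23 and Irx4 0.22, and Irx1 was below the filter; Irx2 and Irx4 were picked after their values were seen. Lhx3, the closest relative of Lhx4, was at least 1.24-fold lower in the knockout. Cabp1, a relative of Cabp5, read 71.0 in the knockout and 49.7 in the wild type, and Trpm3, a relative of Trpm1, had 5 probe sets past the filter, all higher in the knockout, with log2 ratios from 0.18 to 0.68. Of the 20 related genes, 12 passed the filter, 7 lower and 5 higher, with a median of -0.11.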
